A study of Mus musculus with 4 samples.

Results

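Mediator is the large multiprotein coactivator that carries signals from DNA-bound transcription factors to RNA polymerase II. Its subunit genes were taken from the deposited tables of mouse heart RNA-seq as all symbols made of Med and a number, with or without a final l, together with Cdk8, Cdk19 and Ccnc. They had to reach at least 10 reads in at least 1 of the 4 libraries. This gave 33 genes of the 23337 symbols listed, and all 33 symbols that matched passed the minimum of reads. The hearts came from C57BL6/J mice of 2 genotypes at 2 ages. PIMT fl/fl controls carried loxP sites around exons 3 and 4 of PIMT (Tgs1, an RNA cap methyltransferase that was isolated as a binding partner of the coactivator NCOA6), and csPIMT-/- mice carried the same allele together with a Cre transgene under the αMyHC promoter, which deletes those exons in cardiomyocytes from late embryonic life on. The other cells of the heart kept the gene. Each library held RNA pooled from 5 hearts, of male and female mice together, and there was 1 library for each genotype at 2 months and at 6 months of age, with no replicate library. The pools differed in sex-linked marker genes, whose values are given with Med14 below.

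Mediator is built from a head and a middle module, which contact RNA polymerase II, a tail module, which receives most transcription factors, and a long scaffold subunit, MED14, that holds them together. A separable kinase module of CDK8 or CDK19, cyclin C, MED12 or MED12L and MED13 or MED13L docks on this core and regulates its contact with the polymerase. MED1 of the middle module is the subunit that ligand-bound nuclear receptors bind, among them the PPAR, retinoid and thyroid hormone receptors that set fuel use in the heart, and it was one of the proteins that PIMT was found to bind.

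The libraries held 29823073 to 40705783 reads on genes, and reads of the 33 Mediator genes made up 0.113% to 0.122% of them. Tgs1 had normalized counts (the deposited unit, reads divided by a library size factor) of 579.8 in the 2-month and 816 in the 6-month PIMT fl/fl library, and of 160.3 and 162 in the csPIMT-/- libraries of these ages, which follows the labels. The labelled tissue was borne out by its marker Myh6, at 452317 normalized counts or more in every library. The 7 cardiomyocyte genes (Myh6, Myl2, Tnnt2, Tnni3, Actc1, Ttn and Ryr2) had median ratios over the same-age control of 0.974 at 2 months and 0.75 at 6 months. Ttn was lowest at both ages (0.561 and 0.284), and Tnni3 (1.46 at 2 months) and Actc1 (1.33 at 6 months) were highest. None of the 7 differed over both ages at an adjusted p below 0.05. Genes of other tissues were uneven: the summed normalized count of 3 atrial genes (Sln, Myl4 and Myl7) was 2554 in the 2-month control, 124388 in the 2-month csPIMT-/- library, 44298 in the 6-month control and 28049 in the 6-month csPIMT-/- library. That of 4 brown fat genes (Ucp1, Cidea, Adipoq and Cfd) was highest in the 2-month csPIMT-/- library, at 14742 against 1905 to 4501 in the other libraries. The lung gene Bpifa1 had 979 normalized counts there and 0 to 8.32 elsewhere. Macrophage genes (4 of 5 listed in the tables) summed to 6739 and 17699.5 in the controls and 21571 and 27411 in csPIMT-/- hearts. The 5 fibroblast genes summed to 117766 and 66322 in the controls and 108088 and 118900.0 in csPIMT-/- hearts (median ratios 0.987 and 1.96). The 4 endothelial genes summed to 48159 and 34551 in the controls and 27945 and 31931 in csPIMT-/- hearts (median ratios 0.503 and 0.89). Of these Kdr was lower over both ages (log2 difference -1.02 ± 0.22 SE, adjusted p = 0.0211). Tek was lower too (log2 difference -1.05 ± 0.22 SE, adjusted p = 0.0201). Pecam1 (ratios 0.822 at 2 months and 1.23 at 6 months) and Cdh5 (0.58 and 1.25) were not lower over both ages at an adjusted p below 0.05. Of the blood genes, both globins were at 0 throughout and Alas2, which acts in heme synthesis, had 3832 and 2855 in the controls and 2313 and 12284 in csPIMT-/- hearts. The part of these tissues and cell types in the Mediator values was not tested. In such bulk RNA, fewer cells of a type and less RNA per cell cannot be told apart.

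Mediator genes moved in both directions in csPIMT-/- hearts, so their summed level was nearly flat while single subunits differed between libraries, Med12l by more than 4-fold. The summed normalized count was 42185 and 42976 in the controls and 41709.5 and 43635 in csPIMT-/- hearts. Over both ages 10 genes were lower and 6 higher at an adjusted p below 0.05 and 17 did not pass (limma on log2 reads of all 4 libraries with genotype and age, adjusted over 14935 genes), against 18.8% lower and 12.4% higher among all genes tested. Lower were Med6 of the head, Med1, Med4, Med7 and Med21 of the middle, the scaffold gene Med14, and Ccnc, Cdk19, Med12l and Med13 of the kinase module. Higher were Med22 of the head, Med9 of the middle, and Med25, Med27, Med28 and Med29 of the tail. The tail held no lower gene and the kinase module no higher one. With 1 residual degree of freedom the fit borrows its variance from other genes, and its calls depend on the handling of GC content. Once the trend of the values on transcript GC content was subtracted from each library, none of the 33 genes and none of 13552 genes passed. At an unadjusted p below 0.05 in that fit, 2 Mediator genes were lower and 3 higher, where 3253 of the 13552 genes differed in either direction. edgeR and DESeq2 on the recovered reads, without that step, each called 10 lower and 6 higher. The calls also changed when 1 library was left out, as given in the part on processing. The log2 difference then ran from -2.16 to -1.06 for Ccnc, from -1.83 to -0.92 for Med21 and from 0.59 to 0.99 for Med22.

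By ratio of each csPIMT-/- library over its same-age control, which has no replicate error and carries a 95% Clopper-Pearson interval for counting alone (in brackets from here on), 8 Mediator genes were more than 2-fold lower at 2 months (23% of all genes) and 1 was more than 2-fold higher (16.4% of all genes). At 6 months 9 were more than 2-fold lower (25.7% of all genes) and 1 higher (16%). Med6, Med4, Med7, Med21, Ccnc, Med12l, Med13 and Cdk19 were past 2-fold lower at both ages, which 16.6% of all genes were, and none was past 2-fold higher at both ages (7.12% of all genes). Both csPIMT-/- libraries lay below both controls for 11 members (35.8% of all genes tested) and above them for 12 (35.1%). The median ratio was 0.941 at 2 months and 1.01 at 6 months, beside 0.978 and 0.976 over all genes. By module the medians at 2 and 6 months were 1.28 and 1.09 in the head, 0.654 and 0.587 in the middle, 1.73 and 1.61 in the tail and 0.395 and 0.417 in the kinase module. With the lowess trend of the log2 ratios on GC content subtracted, called GC correction below, they came to 1.19 and 1.33, 0.771 and 1.03, 1.3 and 1.13, and 0.791 and 1.01, so that at 6 months the kinase and middle medians no longer lay below 1.

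**Figure D1:**
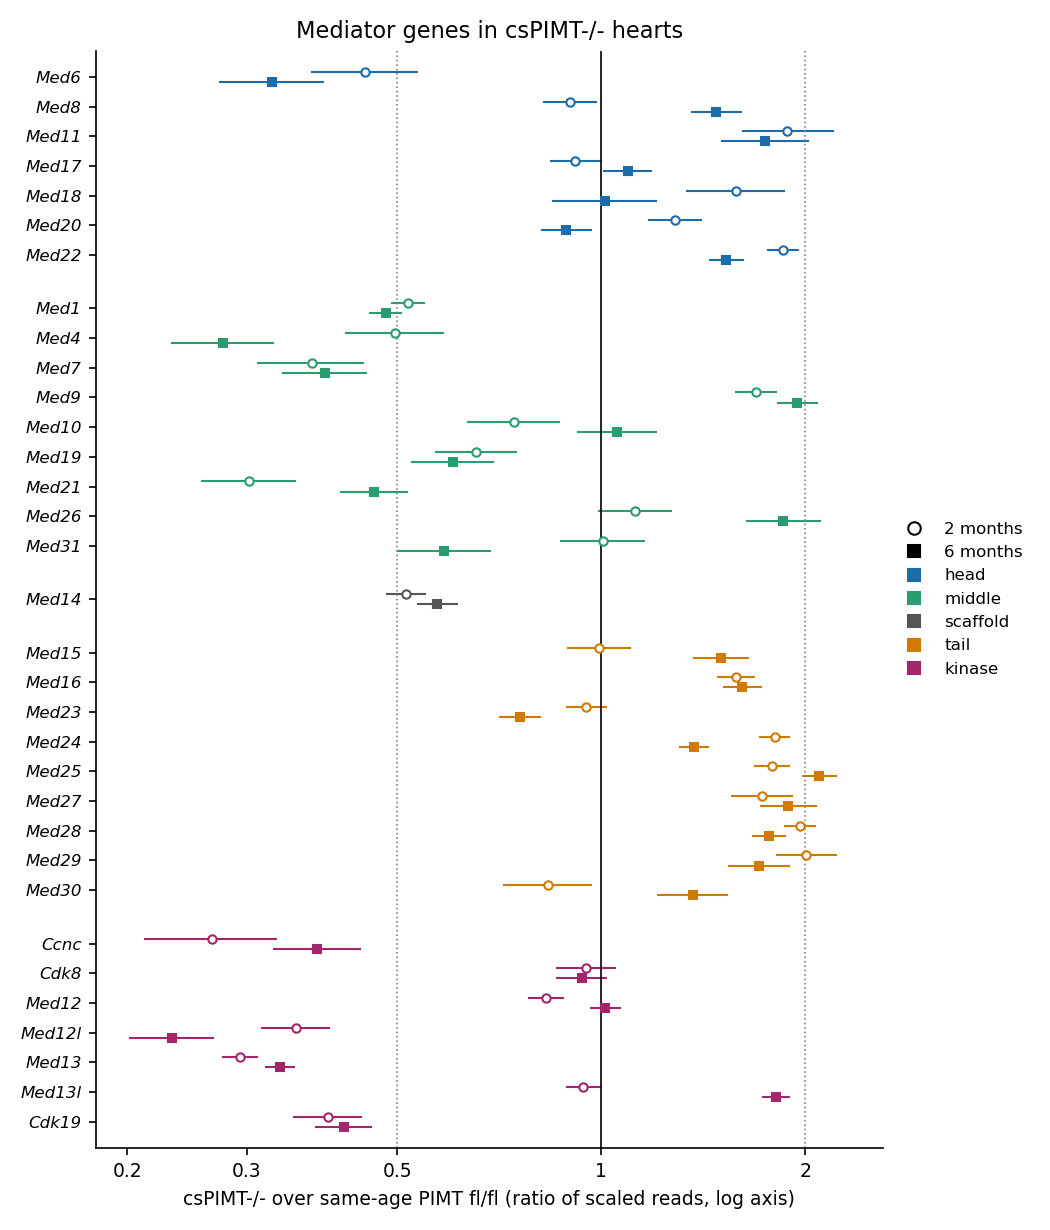
Ratio of csPIMT-/- over PIMT fl/fl of the same age for the 33 Mediator genes, grouped by module, on a log axis; open circles are 2 months, filled squares 6 months, and bars are 95% counting intervals from 1 library per group. Ccnc at 2 months (0.266) and Med12l at 6 months (0.233) lie farthest to the left, while Med25, Med27, Med28 and Med29 of the tail lie between 1.71 and 2.1.

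The promoters of 3 of these genes are shown because Med1 is the subunit tied to PIMT, and because Med12l and Med28 were the members past 2-fold, lower and higher respectively, at both ages once the GC trend was subtracted (Med28 was within 2-fold before that step at both ages). Each stretch runs from 250 bases before to 50 bases after the first RefSeq start listed for the gene on GRCm38.p6, 5′ to 3′ on the strand of the gene. Capitals mark every match, on either strand, to 6 short motifs: GGGCGG of the SP1 family, the CCAAT box, the TATA box with letters TATAAA, the ETS core with letters CCGGAAG, the NRF1 motif GCATGCGC and the YY1 motif ATGGCGGC.
Med1 (chr11:98192857-98193156, minus strand): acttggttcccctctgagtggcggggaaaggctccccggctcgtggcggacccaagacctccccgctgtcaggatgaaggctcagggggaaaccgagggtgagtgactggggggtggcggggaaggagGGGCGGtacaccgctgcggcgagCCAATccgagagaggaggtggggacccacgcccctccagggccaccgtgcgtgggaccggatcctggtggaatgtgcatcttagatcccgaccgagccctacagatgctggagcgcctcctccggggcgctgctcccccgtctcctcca
Med12l (chr3:59006728-59007027, plus strand): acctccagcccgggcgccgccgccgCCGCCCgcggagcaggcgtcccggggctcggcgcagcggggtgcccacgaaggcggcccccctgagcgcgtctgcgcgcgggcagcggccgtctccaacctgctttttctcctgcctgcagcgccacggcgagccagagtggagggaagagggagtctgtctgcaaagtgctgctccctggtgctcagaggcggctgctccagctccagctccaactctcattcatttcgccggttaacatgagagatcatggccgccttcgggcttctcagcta
Med28 (chr5:45519979-45520278, plus strand): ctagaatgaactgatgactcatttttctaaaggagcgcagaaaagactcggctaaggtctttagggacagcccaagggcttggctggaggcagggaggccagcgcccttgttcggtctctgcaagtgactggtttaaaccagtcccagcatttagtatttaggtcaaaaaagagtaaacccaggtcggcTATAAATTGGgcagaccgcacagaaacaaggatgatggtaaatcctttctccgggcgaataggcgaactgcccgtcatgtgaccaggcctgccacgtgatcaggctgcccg
The Med1 window held an SP1 box and a CCAAT box, that of Med12l an SP1 box alone, and that of Med28 a TATAAA that overlaps a CCAAT on the other strand by 1 base. The Med1 and Med12l windows lie inside the annotated spans of these genes, whose 5′ ends are at 98193293 and 59005825. They therefore do not cover the bases before those ends. A promoter was at hand for 28 of the 33 genes, all but Med8, Med23, Med24, Med30 and Cdk19. The SP1 box was in 18 of the 28 (64.3%) against 35.7% of 32851 mouse promoters of the same length, the ETS core in 25% against 8.86%, the NRF1 motif in 10.7% against 2.71%, the YY1 motif in 3.57% against 2.24%, CCAAT in 39.3% against 37.4%, and TATAAA in 10.7% against 13.6%. The 2 sets differ in makeup: 1 promoter, the first listed, was taken per Mediator gene, while every listed promoter was counted in the 32851. Median GC content was 57.8% in the Mediator promoters against 52.7% in all, and the median ratio of observed to expected CpG was 0.841 against 0.384. Of the genes that were lower, all 9 with a promoter held the SP1 box, as did 3 of the 6 that were higher. Promoter GC content had a median of 63.3% in the former and 55.7% in the latter, the reverse of the order of their transcripts given below. Motif matches are a description of these windows and no evidence of binding.

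The head module, whose subunits grip the polymerase, was split. MED6 is one of the most conserved subunits and sits where the head meets the middle. Med6 (chr12:81573557-81595008 on mm10) had normalized counts of 428 in the 2-month and 511 in the 6-month PIMT fl/fl library, and of 196 and 172 in the csPIMT-/- libraries of these ages. Both csPIMT-/- values lay below both controls, with ratios of 0.449 (0.373 to 0.537) at 2 months and 0.327 (0.274 to 0.39) at 6 months (log2 difference -1.35 ± 0.34 SE, adjusted p = 0.032). Med11 and Med22 encode the pair of small subunits that bind each other in the head. Med22 stood at 1915 and 1734 in the controls and 3622 and 2723 in csPIMT-/- hearts and was higher in csPIMT-/- hearts (log2 difference 0.78 ± 0.22 SE, adjusted p = 0.0432), with ratios of 1.85 (1.75 to 1.96) at 2 months and 1.53 (1.44 to 1.62) at 6 months. Med11 had 247 and 263 in the controls and 473 and 470.2 in csPIMT-/- hearts, the highest ratios of the module, 1.88 at 2 months and 1.74 at 6 months, and an adjusted p of 0.0786. MED18 and MED20 form the movable jaw of the head, and neither gene passed the test. Med18 had 232 and 237 in the controls and 374 and 247 in csPIMT-/- hearts, so the csPIMT-/- library stood apart from its control at 2 months (ratio 1.58 (1.34 to 1.87)) and not at 6 months (1.01 (0.846 to 1.21)). Med20 went from 1.28 at 2 months to 0.889 at 6 months, Med8 from 0.9 to 1.48, and Med17, the central head subunit, from 0.915 to 1.09. After the GC trend was subtracted the ratios of Med6 were 0.886 and 0.743 at 2 and 6 months and those of Med22 1.35 and 1.08, all within 2-fold.

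In the middle module 4 of 9 genes were lower and 1 was higher (18.8% lower and 12.4% higher among all genes tested). Med1 (chr11:98152154-98193293 on mm10, minus strand) had normalized counts of 3806 in the 2-month and 3882 in the 6-month PIMT fl/fl library, and of 2013 and 1916 in the csPIMT-/- libraries of these ages. The controls lay close together and both csPIMT-/- libraries lay below them, with ratios of 0.519 (0.49 to 0.549) at 2 months and 0.481 (0.455 to 0.508) at 6 months (log2 difference -0.97 ± 0.21 SE, adjusted p = 0.0215). Per length, Med1 stood at 13.8 and 13.5 RPKM (reads scaled by transcript length and by the reads of the library) in the controls and 6.82 and 6.35 RPKM in csPIMT-/- hearts. Subtraction of the GC trend left ratios of 0.753 and 0.73, on the same side of 1. MED7 and MED21 wind around each other as the hinge of the middle module, and both genes were lower. Med21 had 750.2 and 913 in the controls and 232 and 434 in csPIMT-/- hearts, the lowest ratio of the module at 2 months (0.303 (0.257 to 0.355), and 0.463 (0.412 to 0.519) at 6 months; log2 difference -1.39 ± 0.31 SE, adjusted p = 0.0222). Its csPIMT-/- libraries differed from each other by more than its controls did. Med7 had 498 and 674 in the controls and 189.9 and 270.5 in csPIMT-/- hearts, with ratios of 0.374 (0.311 to 0.448) at 2 months and 0.391 (0.339 to 0.451) at 6 months (log2 difference -1.36 ± 0.31 SE, adjusted p = 0.0244). Corrected for GC, Med7 came to 1.03 and 1.2 and Med21 to 0.815 and 1.4, so neither kept its direction at both ages. Med4, which encodes another core subunit of the middle, had 469.9 and 597 in the controls and 238 and 169.6 in csPIMT-/- hearts and the lowest ratio of the module at 6 months (0.277 (0.232 to 0.329), against 0.496 (0.419 to 0.586) at 2 months; log2 difference -1.40 ± 0.37 SE, adjusted p = 0.0343). Med4 kept its direction, at 0.598 and 0.331 with the GC trend subtracted. Med9 was the one higher gene, with 1189.8 and 1113 in the controls and 2052 and 2225 in csPIMT-/- hearts and ratios of 1.69 (1.57 to 1.82) at 2 months and 1.95 (1.82 to 2.09) at 6 months (log2 difference 0.89 ± 0.22 SE, adjusted p = 0.0319); these were 1.19 and 1.34 with the GC trend subtracted. Med26, whose product recruits elongation factors to the polymerase, had 491 and 356 in the controls and 561 and 678 in csPIMT-/- hearts; its ratio was 1.12 (0.989 to 1.27) at 2 months and 1.86 (1.64 to 2.11) at 6 months, and it did not pass the test (adjusted p = 0.22). Of the remaining genes, Med19 had ratios of 0.654 at 2 months and 0.604 at 6 months (adjusted p = 0.145), Med10 of 0.743 at 2 months and 1.06 at 6 months, and Med31 of 1 at 2 months and 0.587 at 6 months.

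Med14 (chrX:12675369-12762073 on mm10), the scaffold on which head, middle and tail are assembled, had normalized counts of 2751 in the 2-month and 2143 in the 6-month PIMT fl/fl library, and of 1446 and 1261 in the csPIMT-/- libraries of these ages. Both csPIMT-/- values were below both controls and the ratios were 0.515 (0.482 to 0.551) at 2 months and 0.573 (0.535 to 0.614) at 6 months (log2 difference -0.85 ± 0.22 SE, adjusted p = 0.0332). After GC correction they were 1 and 1.28. Med14 and Med12 lie on the X chromosome, and sex-linked marker genes differed between the pools: the Y-linked gene Uty had normalized counts of 2254 and 299.9 in the controls and 87.5 and 171 in csPIMT-/- hearts, and Xist, the RNA of the inactive X chromosome, 805 and 25639 against 6369 and 12856. These markers differed between the genotypes at both ages. The part of this in Med14, Med12 and the other Mediator genes was not tested.

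In the tail module 4 of 9 genes were higher and none was lower (12.4% higher and 18.8% lower among all genes tested). MED25 binds acidic activators through a domain of its own, and Med25 had normalized counts of 1651 in the 2-month and 1474 in the 6-month PIMT fl/fl library, and of 3008 and 3171 in the csPIMT-/- libraries of these ages. Both csPIMT-/- values exceeded both controls, with ratios of 1.79 (1.68 to 1.9) at 2 months and 2.1 (1.97 to 2.23) at 6 months, the highest of any Mediator gene at 6 months (log2 difference 0.98 ± 0.22 SE, adjusted p = 0.0227). Med29 had 545 and 534 in the controls and 1116 and 935 in csPIMT-/- hearts and the highest ratio of any Mediator gene at 2 months (2.01 (1.81 to 2.22), then 1.71 (1.54 to 1.89); log2 difference 0.91 ± 0.26 SE, adjusted p = 0.0446). Med28 had 1981 and 1768 in the controls and 3963 and 3205 in csPIMT-/- hearts, with ratios of 1.96 (1.86 to 2.07) at 2 months and 1.77 (1.67 to 1.87) at 6 months (log2 difference 0.92 ± 0.21 SE, adjusted p = 0.0252). Med27 had 568 and 597 in the controls and 999.9 and 1157 in csPIMT-/- hearts, with ratios of 1.73 (1.56 to 1.92) at 2 months and 1.89 (1.71 to 2.08) at 6 months (log2 difference 0.88 ± 0.25 SE, adjusted p = 0.0452). Med27 to Med30 join tail to head and are assigned to either module; with them counted in the head, and Med14 in the tail, the head held 4 higher and 1 lower of 11 genes, and the tail 1 higher and 1 lower of 6. The GC-corrected ratios of Med25 were 1.14 and 1.32 and those of Med29 1.33 and 1.13. Med28 and Med27 moved away from 1 instead: their transcripts have GC contents of 45.7% and 49.6%, a range in which the median ratio of all genes lay below 1, and subtraction of the trend moved their ratios to 3.18 and 3.11 and 1.9 and 2.02. Med30, a subunit found in animals and tied to heart function in mice, had 399.8 and 447 in the controls and 340.3 and 625 in csPIMT-/- hearts. Its ratio was 0.834 (0.716 to 0.971) at 2 months and 1.36 (1.21 to 1.54) at 6 months, on opposite sides of 1, and 1.65 and 3.11 with the GC trend subtracted; it did not pass the test (adjusted p = 0.796). Of the large tail subunits, Med16 had ratios of 1.58 at 2 months and 1.61 at 6 months (adjusted p = 0.0543), Med24 of 1.8 at 2 months and 1.37 at 6 months (adjusted p = 0.0654) and Med15, which binds sterol regulatory factors, of 0.993 at 2 months and 1.5 at 6 months. Med23 had 1781 and 1722 in the controls and 1727 and 1339.98 in csPIMT-/- hearts and the lowest tail ratio at 6 months, 0.758 (0.706 to 0.814).

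The kinase module was lower in 4 of 7 genes and higher in none (18.8% lower and 12.4% higher among all genes tested). In each of its pairs of alternative subunits the 2 paralogs differed in ratio. Cyclin C activates either kinase and has no paralog in the module. Ccnc (chr4:21727701-21759922 on mm10) had normalized counts of 431 in the 2-month and 640.3 in the 6-month PIMT fl/fl library, and of 117 and 251 in the csPIMT-/- libraries of these ages, the lowest ratio of any Mediator gene at 2 months (0.266 (0.212 to 0.332), then 0.381 (0.328 to 0.442); log2 difference -1.62 ± 0.34 SE, adjusted p = 0.02). Its transcript also has the lowest GC content of the 33, 35.5%, and with the GC trend subtracted the ratios were 1.12 and 1.53. Of the kinases, Cdk8 had 811 and 1044 in the controls and 785 and 1003 in csPIMT-/- hearts, with ratios of 0.95 (0.857 to 1.05) at 2 months and 0.936 (0.859 to 1.02) at 6 months, intervals that hold 1. Cdk19 had 1156 and 1404 in the controls and 466 and 601 in csPIMT-/- hearts, with both csPIMT-/- values below both controls and ratios of 0.395 (0.352 to 0.443) at 2 months and 0.417 (0.379 to 0.459) at 6 months (log2 difference -1.27 ± 0.25 SE, adjusted p = 0.0172). Cdk19 kept its direction with the GC trend subtracted, at 0.634 and 0.726.

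MED12 activates the kinase and MED13 ties the module to the core. Med12 had 2400.3 and 2773 in the controls and 2028 and 2887 in csPIMT-/- hearts, overlapping between genotypes, and ratios of 0.828 (0.779 to 0.881) at 2 months and 1.01 (0.963 to 1.07) at 6 months (adjusted p = 0.748). Med12l (chr3:59005825-59318682 on mm10) had 1237 and 1001 in the controls and 448 and 239 in csPIMT-/- hearts, with ratios of 0.355 (0.315 to 0.398) at 2 months and 0.233 (0.201 to 0.269) at 6 months, the lowest of any Mediator gene at 6 months (log2 difference -1.77 ± 0.30 SE, adjusted p = 0.0125). Between 2 and 6 months Med12l went to 0.773 of its earlier level in controls and to 0.52 in csPIMT-/- hearts. After GC correction it was still past 2-fold lower at both ages, at 0.499 and 0.339, which no other Mediator gene was. Exons of Igsf10 on the opposite strand cover 15.3% of the exon bases of Med12l, and the strand setting of the counting is not given in the sources used here; Igsf10 itself had 1404 and 793 normalized counts in the controls and 799 and 626 in csPIMT-/- hearts. Med13 (chr11:86267033-86357602 on mm10) was the most abundant kinase module gene in the controls and had 5193 and 5999.8 in the controls and 1555 and 2068 in csPIMT-/- hearts, with ratios of 0.293 (0.276 to 0.312) at 2 months and 0.336 (0.319 to 0.353) at 6 months (log2 difference -1.64 ± 0.21 SE, adjusted p = 0.00832, the smallest adjusted p of the 33). Correction for GC brought them to 0.791 and 1.01. Med13l had 2465 and 2367 in the controls and 2367 and 4397 in csPIMT-/- hearts; only the 6-month csPIMT-/- library stood apart, with ratios of 0.941 (0.888 to 0.998) at 2 months and 1.81 (1.72 to 1.9) at 6 months and an adjusted p of 0.292.

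**Figure D2:**
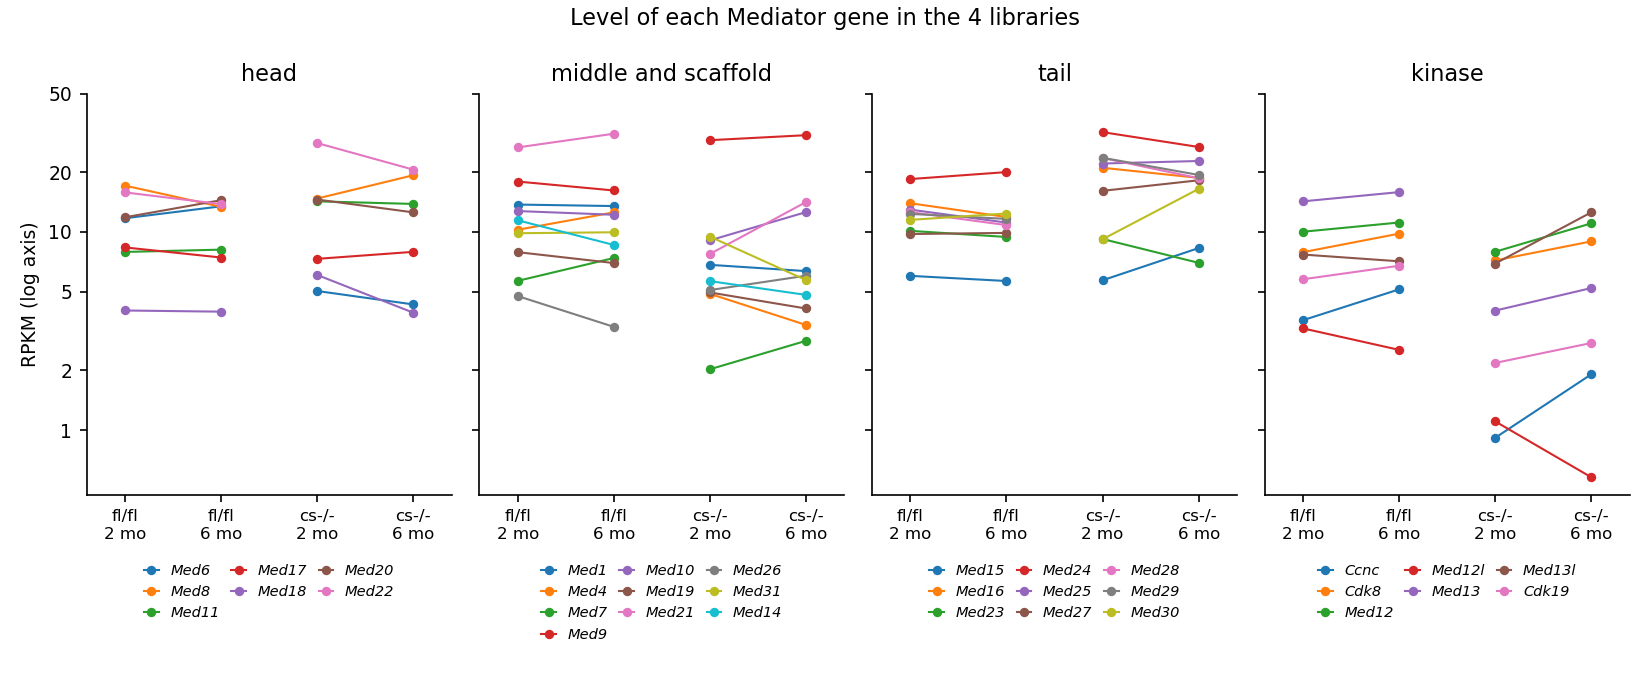
Level of each Mediator gene in RPKM (log axis) in the 4 libraries, controls at left and csPIMT-/- (cs-/-) at right of each panel, 1 point per library with no error bar because each group is 1 pooled library; lines join libraries of 1 genotype. Med12l of the kinase module is at the lowest point of any panel, 0.578 RPKM, and Med24 of the tail reaches the highest, 31.9 RPKM.

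The makeup of the kinase module pairs can be read within each library, where depth and scaling cancel. Cdk19 took 58.8% of the reads of Cdk8 and Cdk19 in the 2-month control (56.7% to 60.8%) and 57.3% in the 6-month control (55.5% to 59.2%), and 37.2% (34.3% to 40.3%) and 37.5% (35.1% to 40%) in the csPIMT-/- libraries. Med12l took 34% (32.6% to 35.5%) and 26.5% (25.2% to 27.9%) of the reads of its pair in the controls and 18.1% (16.4% to 19.8%) and 7.65% (6.73% to 8.66%) in csPIMT-/- hearts. In the third pair the order turned over: Med13l took 32.2% (31.2% to 33.2%) and 28.3% (27.4% to 29.2%) in the controls, where Med13 gave most reads, and 60.4% (58.6% to 62.1%) and 68% (66.8% to 69.2%) in csPIMT-/- hearts, where Med13l did. Each csPIMT-/- interval lies outside both control intervals in all 3 pairs. The intervals cover counting error only, and PCR copies of a molecule are counted as reads. No stretch of 50 bases, the read length, was shared between the transcripts of any pair, so no full-length read could match both paralogs exactly. Reads shortened by trimming and matches with mismatches were not checked. GC content differed within the pairs: 40.5% for Med13 and 51.7% for Med13l, 52.7% for Med12 and 47% for Med12l, and 48.6% for Cdk8 and 45.8% for Cdk19, and in each pair the gene with the lower GC content was the lower one in csPIMT-/- hearts. The shares were not corrected for GC. After GC correction the ratios at 2 and 6 months were 0.791 and 1.01 for Med13 against 0.85 and 1.55 for Med13l, close together at 2 months. They were 0.678 and 0.787 for Med12 against 0.499 and 0.339 for Med12l, and 1.14 and 1.12 for Cdk8 against 0.634 and 0.726 for Cdk19.

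**Figure D3:**
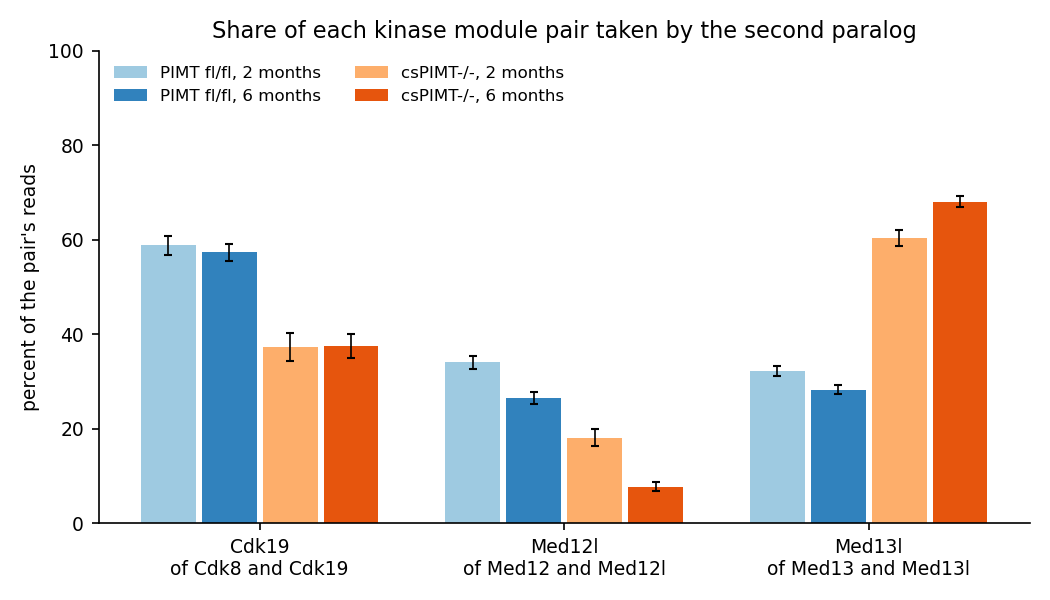
Percent of the reads of each kinase module pair that fell on the second paralog, by library, with bars from 0 and 95% Clopper-Pearson counting intervals (1 pooled library per group). Cdk19 and Med12l take smaller shares in both csPIMT-/- libraries, and Med13l takes 28.3% and 32.2% in the controls and 60.4% and 68% there. The shares are not corrected for GC content, which differs within each pair.

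Between the control libraries, which differ in age and in animals, the 33 genes spread less. The ratio of 6 over 2 months ran from 0.694 for Med26 to 1.42 for Ccnc with a median of 0.975, and none was past 2-fold in either direction, against 5.21% of all genes lower and 8.15% higher. In 23 of the 33 the csPIMT-/- ratio was farther from 1 at both ages than this control ratio, which was also so for 64% of all genes. The exceptions were Med8, Med17, Med18, Med20, Med26, Med15, Med23, Cdk8, Med12 and Med13l. Across the 33 genes the log2 ratios of the 2 ages, which use separate libraries, had a Spearman rho of 0.826, given as a description over 33 genes that share transcript properties. In all, 9 of the 33 (Med8, Med17, Med20, Med10, Med31, Med15, Med30, Med12 and Med13l) lay on opposite sides of 1 at the 2 ages, where 21.1% of all genes did. In csPIMT-/- hearts Ccnc went up to 2.08 times its 2-month level by 6 months, the largest such ratio, and Med12l down to 0.52, the smallest.

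Per length, the Mediator genes, which include the alternative subunits of the kinase module, differed in level. The mean control level was highest for Med21 (29.0 RPKM), Med24 (19.3 RPKM), Med9 (17.1 RPKM), Med8 (15.3 RPKM) and Med13 (15.1 RPKM), and lowest for Med12l (2.90 RPKM), Med18 (3.99 RPKM), Med26 (4.03 RPKM), Ccnc (4.36 RPKM) and Med15 (5.83 RPKM), around a median of 10.6 RPKM. These ranks depend on the length used, that of 1 transcript per gene. For Med21 that transcript has 814 bases, while the exons of the gene cover 3523 bases, so its first rank rests on the shorter length. In csPIMT-/- hearts Med21 fell from 26.7 and 31.3 RPKM to 7.74 and 14.2 RPKM, and Med13 from 14.3 and 15.9 to 4.01 and 5.21 RPKM. Med24 and Med9 held the highest levels there, at 31.9 and 26.9 RPKM and 29.1 and 30.8 RPKM.

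The direction of a Mediator gene went with the GC content of its transcript. Spearman's rho between the log2 ratio and GC content was 0.725 over the 33 genes at 2 months and 0.702 at 6 months, and 0.594 and 0.620 over all genes with a GC value (13748 and 13787). Between the 2 controls it was -0.400 for the Mediator genes and -0.270 for all genes. These correlations are across genes, which are not independent, and share the libraries compared. Of the 7 genes with GC below 45%, 6 were lower and none higher. Between 45% and 50%, 4 of 12 were lower and 2 higher, and above 50% none of 14 was lower and 4 were higher. The calls of all genes in these GC ranges were not counted, so these counts have no background of like GC. In bins of all genes with a median GC of 38.8% to 43.8%, the median log2 ratio ran from -1.71 to -0.99 at 2 months. At 6 months it ran from -1.74 to -1.22 in the bins of 38.7% to 43.8%. The 10 genes that were lower had a median transcript GC of 43.8% and the 6 that were higher 54.5%. Transcript length showed no such relation (rho -0.188 and -0.105). With the trend subtracted, 21 of the 33 stayed on the same side of 1 at each age. Past 2-fold were then Med12l (lower) and Med18 and Med28 (higher) at 2 months, and Med4, Med31 and Med12l (lower) and Med27, Med28 and Med30 (higher) at 6 months. Among all genes, 1536 of 13748 were then past 2-fold lower and 2005 higher at 2 months. At 6 months 1764 and 1888 of 13787 were. The deleted gene moved with the same step: Tgs1, with a transcript GC of 41.9%, had ratios of 0.271 (0.223 to 0.327) at 2 months and 0.194 (0.162 to 0.23) at 6 months, and 0.639 and 0.525 with the trend subtracted. Whether the GC trend arises in the RNA or in the making of the libraries was not tested.

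**Figure D4:**
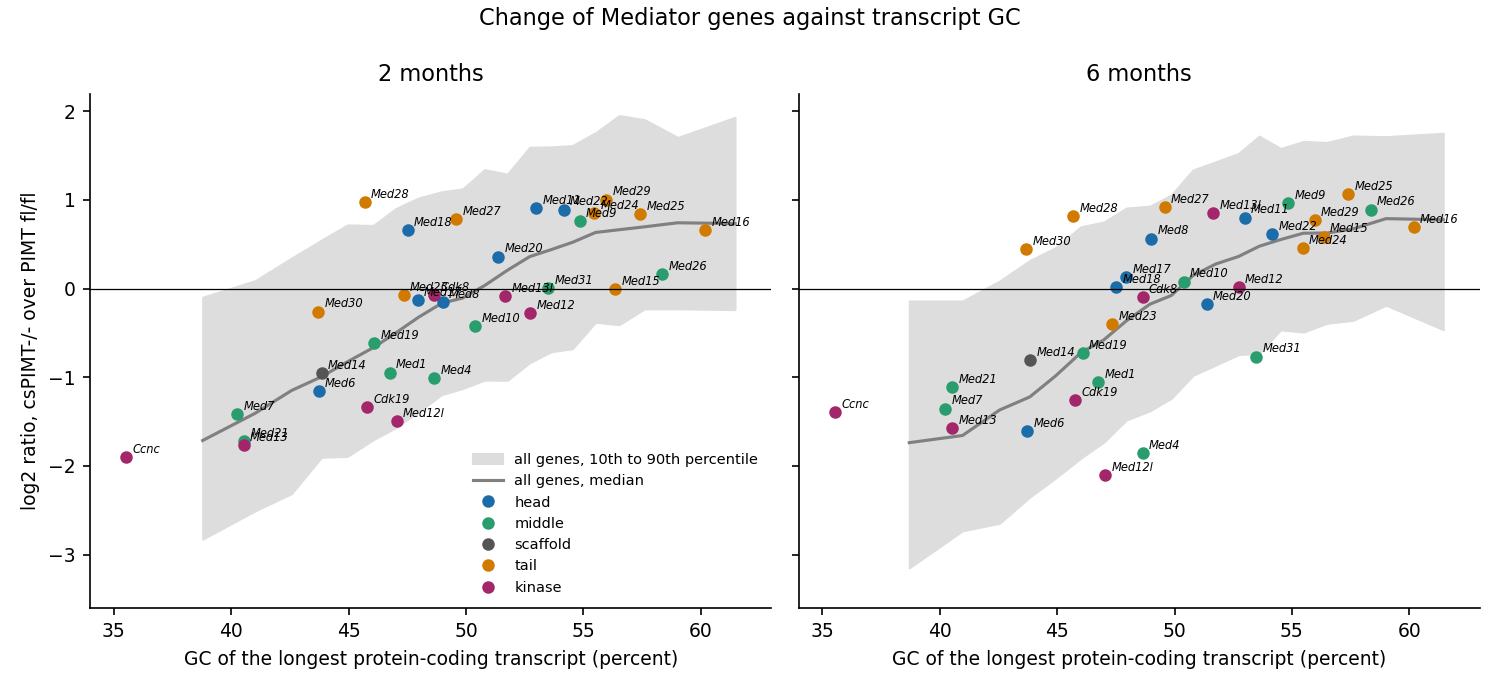
log2 ratio of csPIMT-/- over PIMT fl/fl against the GC content of the longest protein-coding transcript, at 2 months (left) and 6 months (right); colored points are the Mediator genes by module, the grey line and band the median and the 10th to 90th percentile of all genes in 20 bins of GC. Most Mediator genes follow the grey line, with Med28 above it and Med12l below it at both ages.

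Genes of the machinery that Mediator contacts differed in the same 2 directions. Of 12 RNA polymerase II subunit genes 4 were higher and none lower (12.4% and 18.8% of all genes tested), and their median ratios were 1.72 and 1.41 at 2 and 6 months. The ratio was highest at both ages for Polr2e, a subunit shared by all 3 nuclear polymerases (2.21 at 2 months and 2.12 at 6 months, or 1.38 and 1.3 after GC correction; log2 difference 1.14 ± 0.21 SE, adjusted p = 0.0147). It was lowest for Polr2k at 2 months (0.214, from 85 reads in the control and 13 in the csPIMT-/- library, or 0.665 after GC correction). At 6 months it was lowest for Polr2b, the second largest subunit (0.294, or 0.499 after GC correction). Neither gene passed the limma test (adjusted p = 0.124 for Polr2k and 0.0515 for Polr2b). Of 32 genes of general transcription factors, which place the polymerase at promoters, 11 were lower and 1 was higher, against the same shares of all genes, with medians of 0.69 and 0.666. Taf13 was lowest at 2 months (0.154, or 0.388 after GC correction; log2 difference -2.21 ± 0.49 SE, adjusted p = 0.0223) and Taf7 at 6 months (0.234, or 0.751; log2 difference -2.14 ± 0.29 SE, adjusted p = 0.0086). Both encode TFIID subunits, as does Taf10, which was highest at both ages (2.9 at 2 months and 2.19 at 6 months, or 2.92 and 2.12; log2 difference 1.36 ± 0.25 SE, adjusted p = 0.0152). GC correction brought the medians to 1.28 and 1.17 for the polymerase and 1.03 and 0.988 for the general factors. Of 15 nuclear receptor genes whose products bind MED1, 2 were lower (Nr3c1 and Rarb) and 1 was higher (Rxrb), shares of 13.3% and 6.67% that lie below those of all genes. Their median ratios were 1 and 1.33, and 1.03 and 0.916 after GC correction, so the 6-month median crossed to below 1. Nr3c1, the glucocorticoid receptor, had normalized counts of 8061 and 8769 in the controls and 3035 and 2770.5 in csPIMT-/- hearts and the lowest ratio at 2 months (0.369; log2 difference -1.54 ± 0.21 SE, adjusted p = 0.00877). Its ratios of 0.369 at 2 months and 0.308 at 6 months came to 0.849 and 0.816 after GC correction. Rarb, a retinoic acid receptor, had 1261 and 1478 in the controls and 528 and 411 in csPIMT-/- hearts and the lowest at 6 months (0.271, or 0.358 after GC correction; log2 difference -1.56 ± 0.28 SE, adjusted p = 0.0145). Esr1 had the highest at 2 months from low counts, 28.6 and 69.5 in the controls and 155 and 97.8 in csPIMT-/- hearts. Rxrb, a partner of other receptors, had the highest at 6 months (1.68; log2 difference 0.86 ± 0.21 SE, adjusted p = 0.0299). After GC correction Rxrb did not keep that direction (0.989).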

How the data were processed

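RNA of 4 heart pools was sequenced as single-end reads of 50 bases from directional poly(A) libraries. Per their methods the authors checked reads with FastQC, trimmed adapters, removed poor and ribosomal reads, aligned the rest to mm10 with STAR, counted them per gene of a UCSC annotation with htseq-count (HTSeq 0.6.1p1 per the submitters' processing notes) and used DESeq2. The deposited values are normalized counts, a signal scaled by the size factor of each library; other versions are not given in the sources used here. All values (100%) were whole multiples, within 1e-06 reads, of the smallest value above 0 in their library, and division by it recovered the reads. The 6-month csPIMT-/- column is headed as read counts but was normalized too.

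Each ratio was scaled by median-of-ratios size factors of its 2 libraries, required at least 10 reads in 1 of them, and had 95% Clopper-Pearson intervals. log2 ratios had a pseudocount of 0.5 reads. The test over both ages was limma 3.58.1 (TMM by edgeR 4.0.16, log2 of scaled reads plus 1, mean trend of the variance, genotype and age; at least 10 scaled reads in 2 libraries and 15 in all), with Benjamini-Hochberg adjustment over 14935 genes. edgeR and DESeq2 1.42.0 were run on the recovered reads as alternatives, in R 4.3.3. The limma p-values rest on 1 residual degree of freedom and on variance borrowed from other genes. With 1 pool per genotype and age, they do not measure the spread between pools of the same kind. Scripts were tested on simulated data. GC content and length came from the longest protein-coding transcript of a symbol in GENCODE M21 (GRCm38), which all 33 genes had. The GC trend was a lowess curve (span 0.3). No batch or date is given and no within-batch value could be had.

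The Mediator genes and the other lists were chosen with earlier results of these data known. Values in every library were given for Med1, Med12 and Med30, paralog pairs, X-linked genes, and the lowest and highest ratio of each module at each age. Values in every library of the other genes that passed the limma test, and of Med18 and Med26, which did not, were added after their values were seen. Of the other lists the lowest and highest ratios were named.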

Additional observations from a re-analysis of the deposited data

Results flagged for a closer look

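For 5 genes the csPIMT-/- libraries of 2 and 6 months lay on opposite sides of their own controls, each with a counting interval that excludes 1; the difference between ages was not tested, since each age has 1 library per genotype. Med13l had a ratio of 0.941 at 2 months and 1.81 at 6 months. Med8 had 0.9 and 1.48, Med30 0.834 and 1.36, and Med17 0.915 and 1.09. Med20 went the other way, from 1.28 to 0.889. Against the control of the other age, the ratios of the 2-month and 6-month csPIMT-/- libraries were 0.967 and 1.75 for Med13l, 0.737 and 1.53 for Med30 and 0.978 and 1.02 for Med17, again on opposite sides of 1, but 1.09 and 1.21 for Med8 and 1.001 and 1.13 for Med20, on the same side. With the GC trend subtracted, Med8 (1.05 and 1.7), Med17 (1.18 and 1.43) and Med30 (1.65 and 3.11) lay above 1 at both ages. Med13l (0.85 and 1.55) and Med20 (1.19 and 0.784) stayed on opposite sides of 1. By ratio alone, without the interval, 21.1% of all genes lay on opposite sides of 1 at the 2 ages.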

How the results depend on the processing

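The 1 pooled library per group limits every value here, and counting intervals do not cover differences between animals. The calls over both ages were 10 lower and 6 higher with edgeR, DESeq2, other pseudocounts and no filter on low values, 10 and 5 with median-of-ratios size factors, and 10 and 7 without age. Without a mean trend of the variance 0 Mediator genes were lower and 0 higher, and so were 0 and 0 of all genes, as with the GC trend subtracted. At an unadjusted p below 0.05 without that mean trend, 10 Mediator genes were lower and 6 higher, where 5944 of 14935 genes differed in either direction. Leaving out 1 library, with genotype alone in the model, gave 0 to 7 Mediator genes lower and 0 to 4 higher, and 98 to 2524 of all genes lower and 162 to 1595 higher, against 2801 and 1858 with all libraries. The log2 difference then ran from -0.24 to 0.13 for Cdk8, from -0.39 to 0.12 for Med10, from -0.35 to 0.17 for Med12, from -0.029 to 0.87 for Med13l, from -0.041 to 0.12 for Med17, from -0.046 to 0.29 for Med20, from -0.31 to 0.57 for Med30 and from -0.69 to 0.00095 for Med31, none of which had passed the test with all libraries. The 2 genotypes are paired by age alone, which is a term of the model with all 4 libraries; libraries carry no replicate numbers, and no other pairing could be made.

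Subtraction of the GC trend from each library turned the log2 difference to 0.17 for Med7, 0.10 for Med21, 0.19 for Med14 and 0.37 for Ccnc among the genes called, and to -0.038 for Med20, 0.026 for Med19, -0.16 for Med26, -0.32 for Med15, -0.044 for Med16, 0.25 for Med23 and 0.19 for Cdk8. In the ratios the same step, which by its construction removes what transcripts of like GC share, left 1 Mediator gene more than 2-fold lower and 2 higher at 2 months and 3 and 3 at 6 months. Of all genes it left 1536 of 13748 lower and 2005 higher at 2 months, and 1764 and 1888 of 13787 at 6 months. Med7 then stood at 1.03 and 1.20, Ccnc at 1.12 and 1.53, Med21 at 1.40 and Med13 at 1.01 (both at 6 months). With GC from the longest transcript of any type, added after seeing the data, the Mediator counts were 1, 2, 3 and 4. Subtraction of the trend moved the median ratio of the middle to 0.771 and 1.03, of the tail to 1.30 and 1.13, of the kinase module to 0.791 and 1.01, of the head at 6 months to 1.33, of the polymerase II machinery (subunits and general factors together) at 2 months to 1.11 and of the nuclear receptors at 6 months to 0.916.

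Against the control of the other age, 8 Mediator genes were more than 2-fold lower and 3 higher at 2 months and 6 lower (9 with the control of the same age) and 0 higher at 6 months, and the median was 1.09 for the head and 1.22 for the nuclear receptors at 2 months and 0.570 for the kinase module and 1.11 for the nuclear receptors at 6 months. The count more than 2-fold higher was 0 with TMM size factors at 2 months, 0 with both controls summed at 6 months, and 0 at both ages where the interval itself, not just the ratio, had to be past 2-fold. With Med27 to Med30 in the head and Med14 in the tail, the medians were 1.58 and 1.48 for the head and 1.29 and 1.44 for the tail. The causes of these changes were not tested.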

Other observations

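Exons of other listed genes on the opposite strand overlap 3 further Mediator genes: Zdhhc5 covers 11.9% of the exon bases of Med19, Tm7sf3 5.59% and Gm6654 9.88% of those of Med21, and 4930563E22Rik 26.3% of those of Med31. Zdhhc5 had 6070 and 4803 normalized counts in the controls and 4297 and 4583 in csPIMT-/- hearts, Tm7sf3 had 1769 and 1669 against 1923 and 2138, and Gm6654 and 4930563E22Rik had 0 to 56.3 in every library.

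Per transcript length, the share of the second paralog in the kinase module pairs was 42.2% and 40.8% in the controls and 23.3% and 23.5% in csPIMT-/- hearts for Cdk19, 24.5% and 18.5% against 12.2% and 4.97% for Med12l, and 35% and 30.9% against 63.3% and 70.7% for Med13l, an alternative chosen after seeing the data. The summed normalized counts of Med13 and Med13l were 7658 and 8366 in the controls and 3922 and 6465 in csPIMT-/- hearts, those of Cdk8 and Cdk19 were 1967 and 2448 against 1251 and 1604, and those of Med12 and Med12l were 3638 and 3774 against 2476 and 3126.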
